A study of Mus musculus with 12 samples.

Results

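The comparison described here set 3 ascites samples from mice given a FAK inhibitor against 3 ascites samples from mice given vehicle, with FAKWT tumours in both groups. The samples were chosen by their titles, and they make up 6 of the 12 samples of the series. Expression was measured with a NanoString immune panel, in which coloured barcodes on probe pairs count RNA molecules without amplification, and all 750 genes of the deposited table were compared.

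Focal adhesion kinase (FAK) is a tyrosine kinase that gathers with integrins at the sites where a cell grips its matrix, and it passes signals for survival, movement and division into the cell. It is often abundant in ovarian carcinoma, a tumour that spreads as cells and clusters in the fluid of the peritoneal cavity, called ascites. That fluid also holds the host's own peritoneal cells, among them resident and recruited macrophages, B cells, T cells and mast cells, so an immune panel on ascites reads tumour and host together.

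Mice received 5000000 tumour cells of the KMF line into the peritoneal cavity, and cells were taken from the ascites on day 21. The inhibitor group (replicates 4, 5 and 6) carried tumours of genotype KTFAKWT and was given the agent named FAKi VS4716, and the vehicle group (replicates 3, 4 and 9) was given vehicle alone. Dosing was by gavage of 100 mg per kg, 2 times a day. RNA came from 2000000 ascites cells per sample, with no sorting step in the labels. The untreated FAKWT group (3 samples) and the untreated FAKKD group (3 samples, an abbreviation that the labels do not expand) had the same injection and day and no agent. Mouse strain, sex and age and the first day of dosing are not stated in the labels. Whether each sample is a separate mouse is not stated either, and the p-values below rest on the spread among these samples, which may be technical. For the vehicle samples the genotype field reads KTFAKKD while the titles read FAKWT. The titles were followed, and genes that no longer rose or fell when untreated FAKWT took the place of vehicle are named below. No probe for Ptk2, which encodes FAK, was analysed here, so neither the genotype nor the drug's target could be read from its level. Because the cells were a mixture, fewer cells of a type and less RNA per cell cannot be told apart for any gene below.

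Total counts overlapped between the groups, but the deposited values put the groups on different levels. Recovered counts per sample totalled 757486, 588778 and 720257 with vehicle and 738586, 760152 and 619033 with the inhibitor, and the groups overlapped (exact permutation p = 0.6, two-sided). The factor by which the authors' processing multiplied each sample's counts was 0.750, 0.896 and 0.719 with vehicle and 1.13, 1.14 and 1.25 with the inhibitor. The median gene accordingly stood at log2 values of 6.87, 6.80 and 6.67 with vehicle and 7.51, 7.64 and 7.40 with the inhibitor. The groups did not overlap in either quantity, and the exact permutation p of 0.1 is the smallest that 3 against 3 samples can give. The difference of the group means of this median, 0.74 log2 units, is part of every deposited change. Each change is therefore given as deposited and again relative to the panel, after every sample was shifted to a common panel median (the panel-relative scale). In what follows a gene rose or fell where limma's test gave an adjusted p under 0.05 in the same direction on both scales, and the scale is named wherever a gene passed on one of them alone. Values per sample are deposited log2 values in the replicate order given above, and each group has n = 3.

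**Figure D1:**
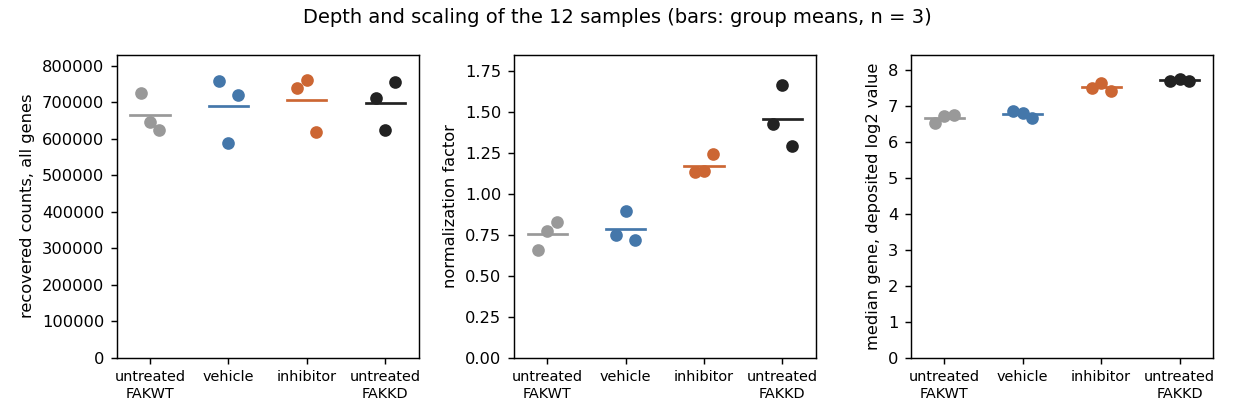
Recovered counts over all genes (left), normalization factor (middle) and deposited log2 value of the median gene (right) for each of the 12 samples, with group means as bars. Counts overlap between vehicle and inhibitor, while the factors of the inhibitor samples (1.13 to 1.25) lie above those of the vehicle samples (0.719 to 0.896).

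None of 750 genes was called between vehicle and untreated FAKWT samples on either scale (limma), while 93 genes as deposited and 99 relative to the panel had an unadjusted p under 0.05, and the smallest adjusted p-values were 0.101 and 0.0899. Some samples stood apart in marker genes of single cell types. Deposited values of 3 neutrophil markers (S100a8, Csf3r and Cxcr2) summed to 7396 in inhibitor replicate 5 against 1593 and 670 in the other inhibitor samples, and to 5258 in vehicle replicate 3 against 976 and 1964 in the other vehicle samples. Mast-cell markers (Cma1, Fcer1a, Ms4a2 and Kit) summed to 1012 in vehicle replicate 3 and to 237 and 199 in the other vehicle samples.

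A large part of the panel differed between inhibitor and vehicle. As deposited, 369 genes (49.2%) were higher and 79 (10.5%) lower with the inhibitor, which together are 59.7% of the panel. Relative to the panel the balance turned, with 133 genes (17.7%) higher and 216 (28.8%) lower, together 46.5%. Other scalings gave other splits: 177 higher and 150 lower after quantile normalization, 157 and 177 after scaling to the total of recovered counts, and 184 and 142 with the panel centred on genes with a mean count of at least 20. The 212 genes (28.3%) called in the same direction on both scales, 133 higher and 79 lower, are those that rose or fell in the sense used here. A further 201 genes were higher as deposited and not called relative to the panel, 102 were lower relative to the panel and not called as deposited, 35 were called in opposite directions and 200 were called on neither scale. Samples of the groups did not overlap for 502 genes (66.9%) as deposited and for 409 genes (54.5%) relative to the panel. The median gene had a log2 fold change of 0.54 as deposited and -0.20 relative to the panel. These medians are the background for the gene groups below. The counts of genes that rose and fell in each group are to be read against 17.7% and 10.5% of all genes. Counts on a single scale are to be read against the shares of all genes called on that scale, given above. Of 146 genes whose mean recovered count over the 6 samples was under 20, 26 passed as deposited and 8 relative to the panel.

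With untreated FAKWT in place of vehicle, 113 of the 133 genes that rose (85%) and 71 of the 79 that fell (89.9%) did so again. Of 95 genes named here that rose, 12 no longer passed on both scales against that control: C1ra, C1s1, Cd8a, Cma1, Fcer1a, Ikzf2, Il1rl1, Il6ra, Ms4a2, Slamf1, Stat5b and Tpsab1. Of 64 named genes that fell, 6 no longer did: Bax, Csf2, Cxcl3, Fcgr4, Il18rap and Il6. Some named genes were lower relative to the panel without falling on both scales. Among these, Cd274, Cd68, Cmklr1, Gzmb, H2-K1, Msr1, Osm, Psmb9 and Tap1 lost their panel-relative call against that control. Leaving out each of the 6 samples in turn kept 80 to 90 of the 95 and 58 to 61 of the 64. Of those that rose, 20 were lost without at least 1 sample, namely C1ra, C1s1, C5ar1, Cd3d, Cd8a, Clec7a, Col3a1, Cybb, F13a1, Ikzf2, Il12a, Il6ra, Itgal, Lck, Mrc1, Sigirr, Slamf1, Stat5b, Tlr8 and Tpsab1, and of those that fell 8 were, namely Bax, Bid, Cd33, Csf2, Cxcl3, Icam1, Il18rap and Oas2.

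**Figure D2:**
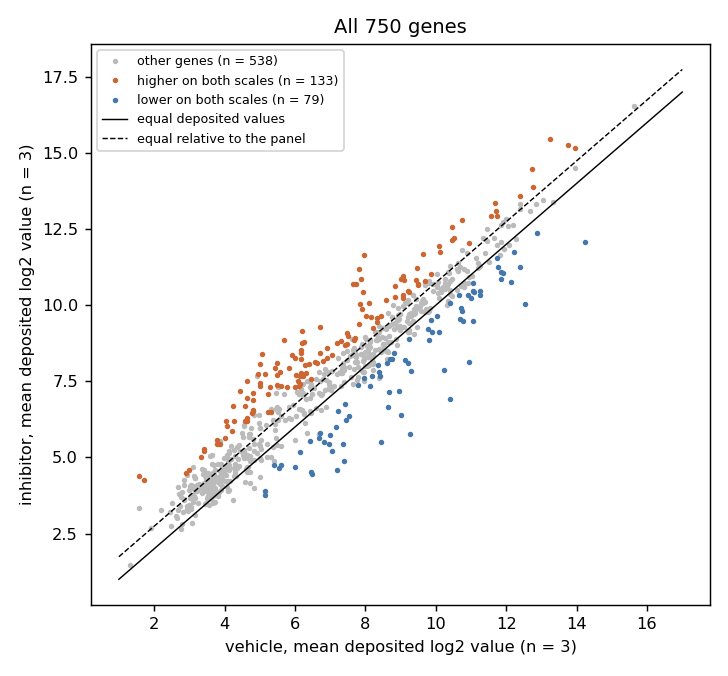
Mean deposited log2 value of each of 750 genes with vehicle (x axis) and with the inhibitor (y axis), n = 3 each. The cloud lies along the dashed line, which is offset from equal deposited values by the shift of the panel median (0.74), and the coloured points are the 133 genes higher and the 79 genes lower on both scales.

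The genes with the steepest fall included Birc5 of the proliferation list and F2rl1 and Spp1 of the list of epithelial and tumour markers. Epcam, Muc1, Cdh1 and Msln of the latter list were not among the steepest falls. All 5 genes of the proliferation list were lower relative to the panel, and 3 of them fell on both scales. Birc5, which encodes survivin, an inhibitor of cell death that is made during mitosis, had log2 values of 9.09, 9.43 and 9.31 with vehicle and 5.43, 5.91 and 6.02 with the inhibitor. Every inhibitor sample lay far below every vehicle sample, and the log2 fold change was -3.49 ± 0.15 as deposited (limma, adjusted p = 5.45e-08) and -4.23 ± 0.17 panel-relative (adjusted p = 8.41e-09), or 11.2-fold lower as deposited. Tfrc, the transferrin receptor that brings iron into dividing cells, stood at 10.51, 10.96 and 10.78 with vehicle and 9.76, 9.76 and 9.88 with the inhibitor, and Myc, a transcription factor of growth, at 11.04, 11.19 and 11.05 with vehicle and 10.36, 10.51 and 10.39 with the inhibitor. Neither gene's groups overlapped, with log2 fold changes of -0.95 deposited and -1.69 relative for Tfrc and -0.68 deposited and -1.42 relative for Myc. Cdk1, the kinase that starts mitosis, and Ccnd3, a cyclin of the first gap phase, were lower relative to the panel alone (log2 fold changes of -0.95 and -0.54). The list's median log2 fold change was -0.68 as deposited and -1.42 relative to the panel.

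Of 11 markers of epithelium and tumour, 7 fell and none rose. Epcam, an adhesion molecule of epithelium, had log2 values of 7.0, 6.86 and 7.10 with vehicle and 5.47, 5.80 and 5.90 with the inhibitor, with no overlap and a log2 fold change of -1.27 ± 0.16 as deposited (limma, adjusted p = 4.95e-05) and -2.01 ± 0.19 panel-relative (adjusted p = 4.92e-06). F2rl1, a receptor switched on by trypsin-like proteases, stood at 8.46, 8.39 and 8.46 with vehicle and 5.35, 5.71 and 5.49 with the inhibitor, which is 7.57-fold lower as deposited (adjusted p = 5.82e-07). Spp1, the secreted matrix protein osteopontin that tumour cells and macrophages both make, stood at 10.25, 11.12 and 11.48 with vehicle and 8.26, 8.01 and 8.12 with the inhibitor, again without overlap and with log2 fold changes of -2.82 deposited and -3.56 relative. Muc1, a mucin of the epithelial surface, fell by 0.90 as deposited, Itgb4, the integrin chain that pairs with Itga6 on basement membrane, fell by 1.11, Tnfrsf12a, the receptor of TWEAK, fell by 1.39, and Cdkn1a, the cell-cycle inhibitor p21, fell by 0.79 on the log2 scale. Cdh1, the adherens-junction protein E-cadherin, and Msln, the mesothelial and ovarian tumour antigen mesothelin, did not follow them. Msln had log2 values of 12.17, 11.80 and 11.99 with vehicle and 12.88, 12.90 and 12.75 with the inhibitor, higher as deposited (log2 fold change 0.85, adjusted p = 2.22e-05) and not called relative to the panel (0.11), and Cdh1 gave 0.82 deposited and 0.08 relative, passing as deposited alone. The summed deposited value of Epcam, Cdh1, Msln and Muc1 was 4877, 3813 and 4375 with vehicle and 7695, 7812 and 7106 with the inhibitor. Msln made up most of this sum, which therefore repeats Msln and hides the falls of Epcam and Muc1. As a percentage of each sample's recovered counts the same sum was 0.858, 0.723 and 0.845 with vehicle and 0.918, 0.904 and 0.921 with the inhibitor.

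Dusp4 and Dusp6 are phosphatases that are made in response to ERK signalling and switch ERK off again. Dusp4 had log2 values of 8.70, 9.23 and 9.13 with vehicle and 5.83, 6.54 and 6.79 with the inhibitor, a log2 fold change of -2.63 ± 0.41 as deposited (limma, adjusted p = 1.84e-04) and -3.37 ± 0.42 panel-relative (adjusted p = 3.72e-05), and Dusp6 fell by 0.77 as deposited. Ptgs2, the cyclooxygenase that starts prostaglandin synthesis, stood at 9.90, 10.47 and 10.30 with vehicle and 7.47, 7.95 and 8.18 with the inhibitor, which is 5.12-fold lower as deposited and 8.56-fold lower relative to the panel. Anxa1, annexin A1, which binds phospholipid and restrains neutrophils, had values of 13.95, 14.40 and 14.35 with vehicle and 12.06, 12.01 and 12.15 with the inhibitor, 4.48-fold lower as deposited and again without overlap. In the list of 8 prostaglandin and adenosine genes these 2 fell together with Ada, the enzyme that degrades adenosine, and none rose. Nt5e, the ectoenzyme CD73 that forms adenosine, was lower relative to the panel alone (log2 fold change -1.19). Vegfc, a growth factor of lymphatic vessels, fell by 1.93 as deposited, whereas Vegfa, its counterpart for blood vessels, gave 0.61 deposited and -0.13 relative and passed as deposited alone. Chosen after their values were seen, Plau (urokinase, a protease that activates plasminogen) and its receptor Plaur fell by 1.75 and 1.57 as deposited, with no overlap between the groups.

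**Figure D3:**
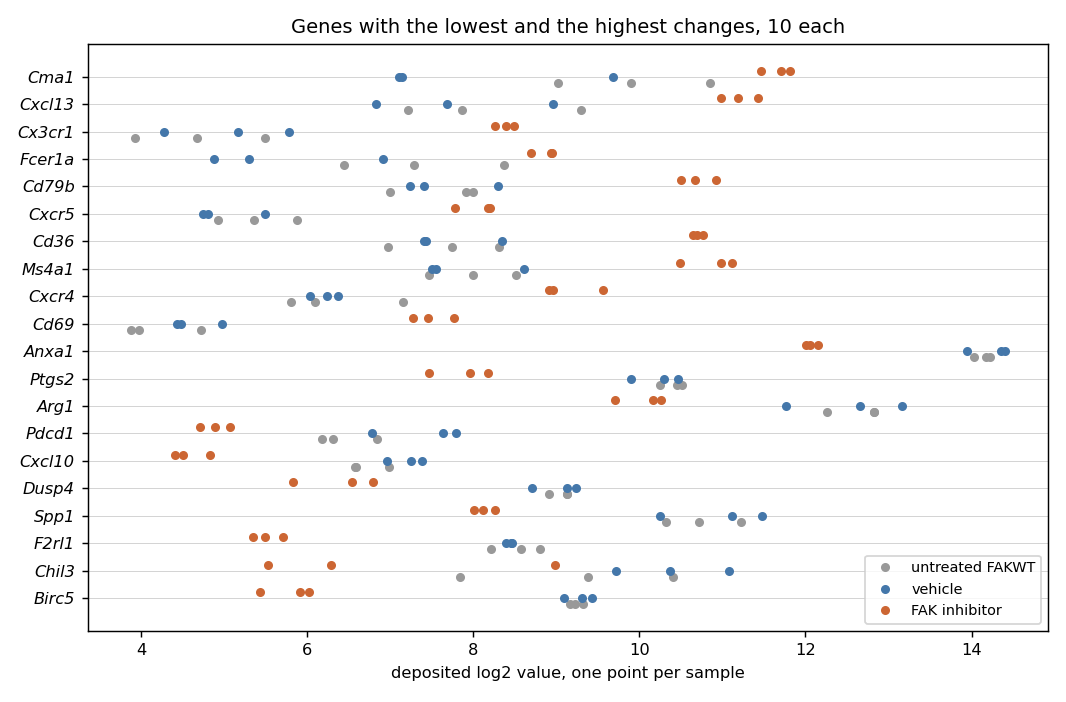
Deposited log2 value of each sample for the 10 genes with the lowest and the 10 with the highest log2 fold change among genes that passed on both scales without overlap and had a mean recovered count of at least 20. Inhibitor points lie apart from vehicle points in every row by that choice, and untreated FAKWT points are drawn for comparison, and they overlap the inhibitor points in the row of Chil3 and in no other row.

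More macrophage genes rose than fell on both scales. Of 26 genes of the macrophage and monocyte lineage, 9 rose (34.6%) and 2 fell (7.69%), against 17.7% and 10.5% of all genes. A further 7 were lower relative to the panel alone or called in opposite directions. Csf1r, the receptor on which macrophages depend for survival, had log2 values of 10.26, 10.08 and 9.88 with vehicle and 11.94, 11.96 and 11.92 with the inhibitor, with no overlap and a log2 fold change of 1.86 ± 0.12 as deposited (limma, adjusted p = 1.08e-06) and 1.12 ± 0.10 panel-relative (adjusted p = 3.19e-06). Cx3cr1, the receptor of fractalkine, which some tissue macrophages and monocytes carry, stood at 5.78, 5.16 and 4.28 with vehicle and 8.26, 8.48 and 8.40 with the inhibitor, a 9.92-fold difference as deposited. C1qa and C1qb, chains of the complement starter C1q that macrophages make, had log2 fold changes of 1.19 deposited and 0.45 relative and of 1.38 deposited and 0.64 relative, and Mrc1, the mannose receptor, had 1.19 deposited and 0.45 relative. Cd33, an inhibitory receptor of myeloid cells, and Cd9, a tetraspanin, fell by 0.59 and 0.51 as deposited. Without inhibitor replicate 4 or 6 or vehicle replicate 3 or 4, Cd33 did not pass as deposited (limma, adjusted p = 0.0514 to 0.0767), which left 1 gene of the list that fell. Of the broad macrophage markers, Emr1 (F4/80) gave 0.40 deposited and -0.34 relative and was called as deposited alone, and Cd68, a lysosomal protein, gave 0.39 deposited and -0.35 relative and was called in opposite directions. The list's median was 0.68 as deposited and -0.06 relative to the panel, close to the median of all genes.

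Of 13 genes of alternative macrophage activation, 2 fell, Arg1 and Chil3, and 2 rose, Mrc1 and Clec7a. These are 15.4% each, against 10.5% of all genes that fell and 17.7% that rose. Without any 1 of the 6 samples, 1 gene of the list rose. Arg1, arginase, which removes the arginine that T cells need, had log2 values of 11.77, 12.66 and 13.16 with vehicle and 10.16, 10.26 and 9.71 with the inhibitor. Its vehicle samples were spread over more than a log2 unit, every inhibitor sample lay below them, and the log2 fold change was -2.49 ± 0.32 as deposited (limma, adjusted p = 5.59e-05) and -3.23 ± 0.34 panel-relative (adjusted p = 9.97e-06). Chil3, a chitinase-like protein that mouse macrophages and neutrophils secrete, stood at 9.72, 10.37 and 11.08 with vehicle and 6.29, 8.99 and 5.53 with the inhibitor, with recovered counts of 1123, 1476 and 3014 and of 69, 446 and 37. Inhibitor replicate 5, the sample with the high sum of neutrophil markers, held the highest of the inhibitor values. The deposited log2 fold change of Chil3 was -3.46 ± 0.81 (SE) with all samples and -4.48 without that replicate (limma, adjusted p = 0.00313 and 0.000218), and the part of the neutrophil markers in it was not tested. Tdo2, an enzyme that breaks down tryptophan, fell, and stood at 6.14, 6.60 and 6.66 with vehicle and 4.35, 4.99 and 4.22 with the inhibitor, without overlap. Lgals3, a galectin, and Thbs1, a matrix protein that can release TGF-beta from its latent form, had deposited log2 fold changes of -1.0 and -1.16. Of 20 suppressive mediators, 4 fell (20%, namely Arg1, Ptgs2, Lgals3 and Thbs1) and 3 rose (15%), against 10.5% and 17.7% of all genes. Those that rose were Tgfb2 (log2 fold changes of 1.75 deposited and 1.0 relative), Csf1, the ligand of Csf1r (1.26 deposited and 0.52 relative), and Cybb, the oxidase subunit gp91phox (1.11 deposited and 0.37 relative). Others on that list did not pass on both scales, among them Nos2 (0.04 deposited and -0.70 relative), Ido1 (0.21 deposited and -0.53 relative) and Il10 (0.79 deposited and 0.05 relative).

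Some lipid handling genes rose, and Cd36 was among the 15 highest deposited changes named here. Of 14 genes for scavenging, uptake of dead cells and lipid handling, 4 rose (28.6%) and 2 fell (14.3%), the latter Thbs1 and Lgals3. Of all genes 17.7% rose and 10.5% fell. Cd36, a scavenger receptor for fatty acids and oxidised lipoprotein, stood at 8.35, 7.43 and 7.40 with vehicle and 10.65, 10.69 and 10.77 with the inhibitor, a log2 fold change of 2.98 ± 0.37 as deposited (limma, adjusted p = 4.12e-05) and 2.24 ± 0.33 panel-relative (adjusted p = 1.56e-04). Apoe, an apolipoprotein that carries cholesterol out of macrophages, had 13.75, 13.01 and 12.98 with vehicle and 15.35, 15.75 and 15.26 with the inhibitor, and Abca1, the transporter that loads it, had 7.79, 7.66 and 8.31 with vehicle and 9.94, 9.91 and 9.78 with the inhibitor. The groups did not overlap for either gene, and the deposited differences were 4.62-fold and 3.89-fold. Colec12, a scavenger receptor of the collectin family, rose likewise (log2 fold changes of 2.12 deposited and 1.38 relative), while Msr1 and Axl were lower relative to the panel alone (-0.42 and -0.70). Msr1 lost that call whichever of the compared samples was left out, and against untreated FAKWT. Chosen after their values were seen, Timd4, Lyve1 and F13a1, which mark resident macrophages in several tissues, rose with deposited log2 fold changes of 1.98, 2.51 and 2.05. F13a1 no longer passed on both scales without inhibitor replicate 4, 5 or 6 or without vehicle replicate 3 or 4. The broad macrophage markers Emr1 and Cd68 did not rise on both scales. Among the highest changes of the panel were also Cyfip2, a subunit of an actin-regulating complex (2.62 deposited and 1.88 relative), and Cmah, an enzyme that modifies sialic acid (2.60 deposited and 1.86 relative).

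Many B-cell genes rose. Of 22 genes of B-cell identity and receptor signalling, 10 rose and none fell on both scales, and 2 were lower relative to the panel (28.8% of all genes were). As deposited 20 were higher, against 49.2% of all genes, and the median of the list was 1.55 (0.81 relative to the panel). Ms4a1, the surface protein CD20, stood at 8.61, 7.50 and 7.55 with vehicle and 11.11, 10.98 and 10.49 with the inhibitor, a log2 fold change of 2.97 ± 0.39 as deposited (limma, adjusted p = 5.73e-05) and 2.23 ± 0.35 panel-relative (adjusted p = 2.47e-04). Cd79b, a signalling chain of the B-cell receptor, had 8.30, 7.41 and 7.23 with vehicle and 10.92, 10.67 and 10.50 with the inhibitor, which is 8.26-fold higher as deposited, and Pax5, the transcription factor that fixes B-cell identity, had 5.71, 5.01 and 4.17 with vehicle and 7.73, 7.82 and 7.72 with the inhibitor. Every inhibitor sample lay above every vehicle sample for these genes. Cd22 and Blk, an inhibitory receptor and a kinase of the same pathway, gave log2 fold changes of 2.53 deposited and 1.78 relative and of 2.34 deposited and 1.60 relative, Tnfrsf13c, the receptor of the survival factor BAFF, gave 2.15 deposited and 1.41 relative, and Syk, the kinase next to the receptor, gave 1.79 deposited and 1.05 relative. Cd79a, the partner chain of Cd79b, was higher as deposited alone (1.59 deposited and 0.85 relative).

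The chemokines and receptors that place B cells in lymphoid tissue rose as well. Of 20 genes of lymphoid organisation, 9 rose and 3 fell. Cxcl13, the chemokine that draws B cells to follicles and is made by peritoneal macrophages in the mouse, had log2 values of 8.96, 7.68 and 6.83 with vehicle and 11.19, 10.98 and 11.43 with the inhibitor. Vehicle replicate 3 was the highest of its group and still below every inhibitor sample, and the log2 fold change was 3.38 ± 0.56 as deposited (limma, adjusted p = 2.91e-04) and 2.64 ± 0.52 panel-relative (adjusted p = 0.0011). Cxcr5, its receptor, stood at 5.49, 4.75 and 4.81 with vehicle and 8.21, 8.18 and 7.79 with the inhibitor, with recovered counts of 60, 30 and 39 and 260, 255 and 177. Cxcr4, the receptor of Cxcl12, had 6.37, 6.23 and 6.03 with vehicle and 8.91, 9.56 and 8.95 with the inhibitor, and Cxcl12 itself had log2 fold changes of 1.52 deposited and 0.78 relative. Ltb, the membrane lymphotoxin chain, and Cd40, the receptor that takes T-cell help, gave 2.23 deposited and 1.49 relative and 2.22 deposited and 1.48 relative. Ccl19, a chemokine for Ccr7-bearing T cells and dendritic cells, went the other way and stood at 10.32, 11.21 and 10.81 with vehicle and 9.10, 9.49 and 9.82 with the inhibitor, a log2 fold change of -1.31 ± 0.24 as deposited (limma, adjusted p = 5.21e-04) and -2.05 ± 0.24 panel-relative (adjusted p = 2.49e-05). Ltbr, the receptor of lymphotoxin, and the adhesion molecule Icam1 fell by 0.41 and 0.33 as deposited.

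MHC class II genes, which present antigen to helper T cells, rose with few exceptions. Of 10 genes, 7 rose and none fell, with a median log2 fold change of 1.59 as deposited and 0.85 relative to the panel. Promoters of this family carry a set of boxes read by a protein complex, among them the Y box, TGATTGG, which contains an inverted CCAAT box and is bound by NF-Y, and Ciita joins that complex and switches the genes on. The promoters of 3 members that rose, each with that motif, are shown to give the element that members of the family share. They are RefSeq sequences of build GRCm38.p6, written 5′ to 3′ on the gene's strand from 150 bases before the start site to the base before it, with the Y box in capitals. H2-Aa lies on the minus strand (chr17:34287824-34287973), H2-Eb1 on the plus strand (chr17:34305717-34305866) and H2-Ob on the plus strand (chr17:34238755-34238904), and the first base of the Y box stands 50, 61 and 59 bases before the start site.
H2-Aa: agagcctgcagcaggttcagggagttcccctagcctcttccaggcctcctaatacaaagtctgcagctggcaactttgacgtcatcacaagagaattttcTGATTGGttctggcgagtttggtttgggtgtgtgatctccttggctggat
H2-Eb1: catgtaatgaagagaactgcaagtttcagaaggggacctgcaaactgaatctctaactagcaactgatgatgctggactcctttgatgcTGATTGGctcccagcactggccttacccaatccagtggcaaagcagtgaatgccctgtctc
H2-Ob: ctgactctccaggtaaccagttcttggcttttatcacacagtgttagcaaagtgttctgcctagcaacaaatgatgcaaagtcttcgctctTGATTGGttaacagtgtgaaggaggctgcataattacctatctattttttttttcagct
Searched on both strands in windows from 250 bases before to 50 bases after each start, TGATTGG was found in 5 of 7 promoters (71.4%) of the 6 class II genes matched, in 8.5% of 682 promoters of the panel's genes and in 7.82% of all 32851 promoters. The 5 promoters belong to H2-Aa, H2-Eb1, H2-Ob, H2-DMb1 and H2-DMb2, of which the last did not pass on either scale, so a match went with genes that rose and with genes that did not.

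H2-Aa, the alpha chain of the I-A molecule, had log2 values of 13.02, 12.96 and 12.17 with vehicle and 14.48, 14.69 and 14.24 with the inhibitor, a log2 fold change of 1.75 ± 0.24 as deposited (limma, adjusted p = 7.76e-05) and 1.01 ± 0.20 panel-relative (adjusted p = 0.00111). H2-Eb1, the beta chain of I-E, and H2-Ab1, the beta chain of I-A, gave 1.67 deposited and 0.93 relative and 1.67 deposited and 0.92 relative. H2-Dma, which helps load peptide, stood at 8.23, 7.76 and 7.57 with vehicle and 10.30, 10.16 and 9.70 with the inhibitor, and H2-Ob, which restrains that loading in B cells, stood at 6.48, 5.95 and 5.61 with vehicle and 8.44, 8.26 and 8.14 with the inhibitor. Neither overlapped between the groups, and their deposited differences were 4.58-fold and 4.8-fold. Ciita, the master activator of the family, rose with log2 fold changes of 1.43 deposited and 0.69 relative, and Cd74, the invariant chain, with 1.51 deposited and 0.77 relative. Cd83 and Cd86, which mature antigen-presenting cells show on their surface, rose too (2.04 deposited and 1.30 relative and 1.48 deposited and 0.74 relative). Of the dendritic-cell markers, Flt3 was higher as deposited alone (0.56 deposited and -0.18 relative), and Xcr1 and Itgax were called on neither scale (0.06 deposited and -0.68 relative and 0.75 deposited and 0.01 relative).

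Among 17 genes of MHC class I and its peptide loading, which serve antigen to cytotoxic T cells, 2 rose and none fell on both scales. They were the class I-like molecules Mr1, which presents vitamin metabolites (1.58 deposited and 0.84 relative), and Cd1d2, which presents lipids (2.73 deposited and 1.99 relative). The classical chain H2-K1 gave -0.07 deposited and -0.81 relative and was lower relative to the panel alone, together with the peptide transporter Tap1 (-0.83) and the immunoproteasome subunits Psmb8 (-1.04), Psmb9 (-0.89) and Psmb10 (-1.07). H2-K1, Tap1 and Psmb9 lost this call against untreated FAKWT. They also lost it with the panel centred on genes with a mean count of at least 20. H2-D1, the other classical chain, was higher as deposited alone (0.49 deposited and -0.25 relative). The list's median was 0.37 as deposited and -0.37 relative to the panel.

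Interferon-stimulated genes, which carry out the antiviral programme set off by type I and type II interferons, gave falls and no rise. Of 28 such effectors 5 fell, and 14 were lower relative to the panel, where the median was -0.58 (0.16 as deposited). Of all genes 10.5% fell and 28.8% were lower relative to the panel. The interferon-stimulated response element, with a core of GAAA, any 2 bases and GAAA again, is bound by ISGF3 and shares its GAAA steps with other sites of IRF proteins. The promoters of 3 genes that fell, the effectors Oas3 and Bst2 and the chemokine Cxcl10 from another list, are shown with it in capitals. They are RefSeq sequences of build GRCm38.p6, all on the minus strand, written 5′ to 3′ on that strand. Oas3 (chr5:120777660-120777809) and Bst2 (chr8:71537473-71537622) run from 150 bases before the start site to the base before it, and Cxcl10 (chr5:92348990-92349139) from 250 to 101 bases before it. The element begins 75 bases before the start in Oas3, 213 bases in Cxcl10, and 130 and 124 bases in Bst2, where a pair of overlapping matches forms the capitals.
Oas3: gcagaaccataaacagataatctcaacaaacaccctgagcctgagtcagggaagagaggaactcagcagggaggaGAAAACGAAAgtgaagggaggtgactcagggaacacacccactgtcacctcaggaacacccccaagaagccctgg
Bst2: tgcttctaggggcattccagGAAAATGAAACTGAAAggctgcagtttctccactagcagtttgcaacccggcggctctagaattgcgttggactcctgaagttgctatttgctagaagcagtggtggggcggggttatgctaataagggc
Cxcl10: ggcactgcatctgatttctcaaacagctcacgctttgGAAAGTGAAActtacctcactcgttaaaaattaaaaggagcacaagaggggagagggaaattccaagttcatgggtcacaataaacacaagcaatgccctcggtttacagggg
On both strands of the 300-base windows this core was found in 13 of 25 promoters (52%) of the 22 effector genes matched, in 7.48% of the panel's promoters and in 3.44% of all promoters. Genes with a match included Oas3 and Bst2, which fell, Isg15 and Ddx58, which were lower relative to the panel alone, and Ddx60 and Ifitm2, which were higher as deposited alone. Oasl1, Oas2 and Isg20, the other effectors that fell, were not among the genes with a match, and not every effector was matched to a promoter. The element is therefore not shown to be shared by the genes that fell.

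Oasl1, an antiviral protein of the oligoadenylate synthetase family, had log2 values of 9.32, 9.13 and 9.47 with vehicle and 7.64, 7.91 and 8.0 with the inhibitor, a log2 fold change of -1.46 ± 0.18 as deposited (limma, adjusted p = 4.71e-05) and -2.20 ± 0.22 panel-relative (adjusted p = 7.83e-06). Oas3 and Oas2, synthetases of the same family, and Isg20, an exonuclease that degrades viral RNA, gave -0.98 deposited and -1.72 relative, -0.75 deposited and -1.49 relative and -0.60 deposited and -1.34 relative. Bst2, tetherin, which holds budding virus at the membrane, stood at 9.83, 9.71 and 9.86 with vehicle and 8.88, 8.89 and 8.78 with the inhibitor, with every inhibitor sample below every vehicle sample. Cxcl10, the interferon-induced chemokine that draws Cxcr3-bearing T cells, fell, and stood at 7.38, 7.25 and 6.96 with vehicle and 4.83, 4.51 and 4.40 with the inhibitor, with recovered counts of 222, 170 and 173 and of 25, 20 and 17. Its log2 fold change was -2.62 ± 0.49 as deposited (limma, adjusted p = 6.62e-04) and -3.36 ± 0.46 panel-relative (adjusted p = 7.80e-05), whereas Cxcl9 and Cxcl11, the other ligands of Cxcr3, gave 0.05 deposited and -0.69 relative and 0.57 deposited and -0.17 relative and were called on neither scale. The antiviral genes Mx1 (0.21 deposited and -0.53 relative), Ifit1 (0.35 deposited and -0.39 relative) and Rsad2 (0.35 deposited and -0.39 relative) were not called either. Among 21 regulators and receptors of the interferon system 3 rose, Irf4, Irf5 and Irf8, transcription factors of lymphocytes and myeloid cells, with deposited log2 fold changes of 1.86, 1.24 and 1.36. Irf1 and Irf7, which carry the interferon signal to DNA, were lower relative to the panel alone (-0.83 and -0.99).

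T-cell genes were higher as deposited in most cases, and fewer passed relative to the panel. Of 26 genes of the T-cell receptor and its proximal signalling, 22 were higher as deposited and 8 rose on both scales, while Tcf7, a transcription factor of resting T cells, was lower relative to the panel alone (-0.88). Of all genes 49.2% were higher as deposited and 17.7% rose. The median log2 fold change was 1.11 as deposited and 0.37 relative to the panel. Thy1, a surface protein of mouse T cells, had log2 values of 4.83, 5.30 and 4.28 with vehicle and 6.62, 6.75 and 6.25 with the inhibitor, and Cd8a, the coreceptor of cytotoxic T cells, had 3.58, 3.54 and 2.85 with vehicle and 4.99, 5.04 and 5.02 with the inhibitor. Lck, the kinase next to the receptor, and Cd3d, a chain of the receptor complex, gave 1.61 deposited and 0.87 relative and 1.55 deposited and 0.81 relative, and Ptprc, the phosphatase CD45 of all leukocytes, gave 1.42 deposited and 0.68 relative. The number of these genes that rose fell from 8 to 5 without inhibitor replicate 4, without inhibitor replicate 5 or without vehicle replicate 9. The summed deposited values of Cd3d, Cd3e, Cd3g and Thy1 were 104, 132 and 67.6 with vehicle and 291, 336 and 208 with the inhibitor, or 0.0182, 0.0250 and 0.0131% and 0.0347, 0.0388 and 0.0270% of recovered counts.

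Few cytotoxic genes were called. Of 32 genes of cytotoxic and NK cells, 21 had a mean recovered count under 20, 2 rose and 1 fell. Gzmb, the protease granzyme B, gave -0.16 deposited and -0.90 relative and was lower relative to the panel alone, and Gzma, Prf1 and Ncr1, an activating NK receptor, were called on neither scale (-0.10 deposited and -0.84 relative, 0.78 deposited and 0.04 relative and 0.20 deposited and -0.55 relative). Gzmb lost its call without inhibitor replicate 4, 5 or 6, without vehicle replicate 4 or 9 or against untreated FAKWT. Those that rose were Klra7, an NK receptor with only 8, 3 and 3 counts with vehicle and 18, 19 and 13 with the inhibitor, and Slamf7. Ulbp1, a stress ligand that alerts NK cells through Klrk1, fell by 1.22 as deposited. Receptors of the SLAM family, which bind their own kind between leukocytes, rose in 6 of 9 cases, with a median of 1.60 as deposited and 0.86 relative to the panel. Slamf1 gave 2.82 deposited and 2.08 relative, Slamf7 2.34 deposited and 1.60 relative and Ly9 2.10 deposited and 1.36 relative, and Cd244, the receptor of Cd48, was lower relative to the panel alone (-0.53).

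Of 15 inhibitory checkpoint genes, 3 rose (20%) and 2 fell (13.3%), shares near those of all genes (17.7% and 10.5%). Pdcd1, the receptor PD-1, had log2 values of 6.79, 7.63 and 7.79 with vehicle and 4.71, 4.89 and 5.07 with the inhibitor and recovered counts of 147, 221 and 308 and 23, 26 and 27. The groups did not overlap, and the log2 fold change was -2.51 ± 0.31 as deposited (limma, adjusted p = 3.94e-05) and -3.25 ± 0.34 panel-relative (adjusted p = 8.98e-06). Cd274, its ligand PD-L1, was lower relative to the panel alone (-0.38 deposited and -1.12 relative), and Cd276, a relative of that ligand found on tumour cells, fell by 0.66 as deposited. Ctla4, which competes with Cd28 for its ligands, rose (1.27 deposited and 0.53 relative), as did Cd160 (2.54 deposited and 1.80 relative) and Btla (2.08 deposited and 1.34 relative), which share the ligand Tnfrsf14. Cd69, which lymphocytes show early after activation and when they stay in tissue, stood at 4.98, 4.43 and 4.48 with vehicle and 7.45, 7.77 and 7.27 with the inhibitor, a log2 fold change of 2.87 ± 0.26 as deposited (limma, adjusted p = 5.11e-06) and 2.13 ± 0.26 panel-relative (adjusted p = 2.63e-05). In the CD155 and TIGIT axis named in the series title, Pvr, the gene of CD155, was the one of 4 genes that fell, and Tigit and Pvrl2 were lower relative to the panel alone, with deposited log2 fold changes of -0.49, -0.53 and 0.0. The remaining gene of the 4 was called on neither scale. Tigit lost its panel-relative call without inhibitor replicate 4 or without vehicle replicate 9. Against untreated FAKWT, 2 of the 4 genes fell.

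Of 7 genes of the interleukin-6 family and its receptors, 2 fell, the cytokines Lif and Il6, and 1 rose, Il6ra. Lif, a cytokine of stem cells and tumours, had log2 values of 8.73, 8.57 and 8.61 with vehicle and 6.45, 6.94 and 6.57 with the inhibitor, and Il6, which drives acute inflammation, had 8.51, 8.71 and 8.80 with vehicle and 6.92, 7.23 and 7.28 with the inhibitor. Both groups were apart for each gene, with log2 fold changes of -1.99 ± 0.18 as deposited (limma, adjusted p = 6.00e-06) and -2.73 ± 0.17 panel-relative (adjusted p = 2.22e-07) for Lif and of -1.53 deposited and -2.27 relative for Il6. Osm, another member, and Il6st, the chain through which all of them signal, were lower relative to the panel alone (-1.09 and -0.44), while Il6ra, the receptor chain for Il6, rose (1.11 deposited and 0.37 relative). Against untreated FAKWT, Il6 had a deposited log2 fold change of -0.71 and did not pass (limma, adjusted p = 0.151), which leaves Lif as the one member that fell, and Il6ra lost its panel-relative call without vehicle replicate 4 (adjusted p = 0.0579) or against untreated FAKWT (adjusted p = 0.396). Of the feedback inhibitors that cytokine signals induce, Socs1 fell (-1.03 deposited and -1.77 relative) and Socs3 was lower relative to the panel alone (-0.87). Stat5b was the one of 12 JAK, STAT and SOCS genes that rose (1.04 deposited and 0.30 relative), and its panel-relative call was lost without inhibitor replicate 4 or 6, without vehicle replicate 3 or 4 (limma, adjusted p = 0.0605 to 0.0871) or against untreated FAKWT (0.219). Csf2, the growth factor GM-CSF, fell by 1.25 as deposited, but did not pass there without inhibitor replicate 4 or 6, without vehicle replicate 4 (limma, adjusted p = 0.0513 to 0.0872) or against untreated FAKWT (-0.37, adjusted p = 0.444). Of 33 further chemokines and receptors, 4 rose (12.1%) and 3 fell (9.09%), against 17.7% and 10.5% of all genes. Ccl12, a monocyte chemokine of the mouse, had 6.11, 6.91 and 6.47 with vehicle and 4.18, 4.36 and 4.84 with the inhibitor, whereas Ccl3, another chemokine of monocytes, gave 2.44 deposited and 1.69 relative and its receptor Ccr1 1.86 deposited and 1.12 relative. Ebi3 and Il12a, which together form interleukin-35, rose with deposited log2 fold changes of 1.88 and 1.77.

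The interleukin-1 family changed in both directions, 4 genes up and 4 down of 16. Those that fell were Il1r2, a decoy receptor (-1.40 deposited and -2.14 relative), Il1rn, the receptor antagonist (-0.77 deposited and -1.51 relative), Il18rap, a chain of the interleukin-18 receptor (-0.89 deposited and -1.63 relative), and Casp1, the protease of the inflammasome (-0.54 deposited and -1.28 relative). Il1rl1, the receptor of interleukin-33, rose (2.44 deposited and 1.70 relative), with Il1rap, the chain it shares with the interleukin-1 receptor (1.35 deposited and 0.61 relative). Il1b and Il1a themselves were called on neither scale (-0.08 deposited and -0.82 relative and 0.51 deposited and -0.24 relative).

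Signalling genes downstream of innate receptors showed no shared direction on both scales. Of 22 NF-kB genes, 12 were higher as deposited and none relative to the panel, where 11 were lower. Of all genes 49.2% were higher as deposited, 17.7% were higher relative to the panel and 28.8% were lower there. Nfkb2, which gives the p52 subunit of the non-canonical arm, was the one that fell (log2 values of 11.10, 10.80 and 10.84 with vehicle and 10.21, 10.36 and 10.44 with the inhibitor), and Relb, its partner, and Traf3, which holds that arm in check, were lower relative to the panel alone (-0.83 and -0.90). Of 23 Toll-like receptors and adaptors 7 rose, including the endosomal receptors Tlr7, Tlr8 and Tlr9 (1.53 deposited and 0.79 relative, 1.26 deposited and 0.52 relative and 2.04 deposited and 1.30 relative) and Cd180, a related receptor of B cells and myeloid cells (2.56 deposited and 1.81 relative), and 2 fell, Tlr5, the flagellin receptor (-0.87 deposited and -1.61 relative), and the kinase Irak2 (-0.98 deposited and -1.72 relative). Of 25 genes of the TNF family and cell death, 5 fell, among them the death receptor Tnfrsf10b (-0.88 deposited and -1.62 relative) and the pro-apoptotic proteins Bax and Bid (-0.39 deposited and -1.13 relative and -0.41 deposited and -1.16 relative), and 3 rose, among them the survival protein Bcl2 (1.68 deposited and 0.94 relative). The 5 that fell became 3 without vehicle replicate 9.

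Of 26 MAP kinase and AP-1 genes, 3 rose and 3 fell (11.5% each), against 17.7% and 10.5% of all genes. Fos, a subunit of AP-1, had log2 values of 10.77, 10.31 and 10.30 with vehicle and 12.58, 12.73 and 12.42 with the inhibitor, and Jun, its partner, had 11.14, 10.50 and 10.61 with vehicle and 12.72, 12.88 and 12.80 with the inhibitor. Both rose without overlap, with log2 fold changes of 2.11 ± 0.33 as deposited (limma, adjusted p = 1.88e-04) and 1.37 ± 0.31 panel-relative (adjusted p = 0.00288) for Fos and 2.05 deposited and 1.31 relative for Jun, and Egr1, which is induced by the same stimuli, gave 1.75 deposited and 1.01 relative. Those that fell were Dusp4, Dusp6 and the kinase Mapk11 (p38 beta).

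Mast-cell genes rose against vehicle, with a limit set by the control group. Of 13 genes of mast cells, basophils and eosinophils, 6 rose and none fell. Cma1, a chymase of connective-tissue mast cells, had log2 values of 9.68, 7.14 and 7.10 with vehicle and 11.71, 11.47 and 11.81 with the inhibitor, and Fcer1a, the IgE-binding chain of their receptor, had 6.91, 5.30 and 4.88 with vehicle and 8.94, 8.70 and 8.94 with the inhibitor. Vehicle replicate 3, which held the highest mast-cell marker sum of its group, was the highest vehicle sample for both genes and lay below every inhibitor sample. Log2 fold changes were 3.69 ± 0.64 as deposited (limma, adjusted p = 4.01e-04) and 2.95 ± 0.59 panel-relative (adjusted p = 0.00126) for Cma1 and 3.16 deposited and 2.42 relative for Fcer1a. With untreated FAKWT samples (9.01, 9.90 and 10.85 for Cma1) in place of vehicle, the log2 fold change of Cma1 was 1.74 as deposited and 0.88 on the panel-relative scale (limma, adjusted p = 0.0322 and 0.243), and 1 of the 13 genes in place of 6 passed on both scales. Ms4a2, another chain of the IgE receptor, and Tpsab1, a tryptase, gave 2.44 deposited and 1.70 relative and 1.57 deposited and 0.83 relative against vehicle.

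Neutrophil genes gave few calls. Of 17, Camp, an antimicrobial peptide, rose (2.23 deposited and 1.49 relative) and Trem1, a receptor that amplifies inflammation in myeloid cells, fell, and stood at 6.85, 6.98 and 7.32 with vehicle and 5.09, 5.23 and 5.32 with the inhibitor. S100a8, a calcium-binding protein of granulocytes, had 12.29, 9.34 and 10.76 with vehicle and 10.29, 12.77 and 8.72 with the inhibitor, overlapped between the groups and was called on neither scale (-0.20 deposited and -0.94 relative). Cxcl3, a chemokine for neutrophils, fell by 1.30 as deposited, but did not pass there without inhibitor replicate 4 or 5, without vehicle replicate 4 or 9 (limma, adjusted p = 0.0844 to 0.115) or against untreated FAKWT (-0.62, adjusted p = 0.282).

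Complement genes that rose included those at the start of the classical pathway. Of 30 genes, 8 rose and 1 fell, and 11 had a mean recovered count under 20. C1ra and C1s1, the proteases that travel with C1q, gave 1.20 deposited and 0.46 relative and 1.35 deposited and 0.61 relative, and the receptors C3ar1 and C5ar1 gave 1.40 deposited and 0.65 relative and 1.15 deposited and 0.41 relative. C3, the central component, was called on neither scale (0.22 deposited and -0.52 relative), and neither was C9, which forms the pore (0.20 deposited and -0.54 relative). C1qbp, a mitochondrial protein that can also bind C1q, fell by 0.93 as deposited. Without inhibitor replicate 6 the number that rose was 5.

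Of 14 integrins, 3 rose (21.4%), Itga2b, Itga4 and Itgal, and 2 fell (14.3%), Itgb3 and Itgb4, again near the shares of all genes. Itgal and Itga4, the chains of LFA-1 and VLA-4 with which lymphocytes adhere, gave 1.67 deposited and 0.93 relative and 1.26 deposited and 0.52 relative. Itgb3, the chain that pairs with Itgav at the adhesion sites where FAK gathers, had log2 values of 9.04, 9.20 and 9.14 with vehicle and 8.14, 8.19 and 8.25 with the inhibitor and gave -0.93 deposited and -1.68 relative. A total of 9 integrins were lower relative to the panel, and this count was 4 without vehicle replicate 4, while without the other samples in turn it was 5 to 7. Of all genes 28.8% were lower on that scale. Pecam1, an adhesion molecule of endothelium and some leukocytes, stood at 5.61, 4.84 and 5.02 with vehicle and 7.67, 7.97 and 7.61 with the inhibitor, a log2 fold change of 2.60 ± 0.23 as deposited (limma, adjusted p = 5.11e-06) and 1.85 ± 0.22 panel-relative (adjusted p = 2.39e-05). Of the endothelial genes, Tek, the angiopoietin receptor, was lower relative to the panel alone (-0.91), and Cdh5, the cadherin of vessel walls, was higher as deposited alone (1.09). Col3a1, a fibrillar collagen, rose (1.57 deposited and 0.83 relative), and the sum of the fibroblast markers Pdgfrb, Col1a1 and Col3a1 was 241, 185 and 161 with vehicle and 635, 400.3 and 554 with the inhibitor. As a percentage of recovered counts it was 0.0424, 0.0352 and 0.0311 with vehicle and 0.0758, 0.0463 and 0.0719 with the inhibitor. The endothelial markers Pecam1, Cdh5 and Tek made up 0.338, 0.360 and 0.412% of recovered counts with vehicle and 0.214, 0.233 and 0.269% with the inhibitor. Pecam1 was a small part of this sum and rose, and of these genes Tek alone was lower relative to the panel. The lower share is therefore no trait of all the endothelial markers.

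**Figure D4:**
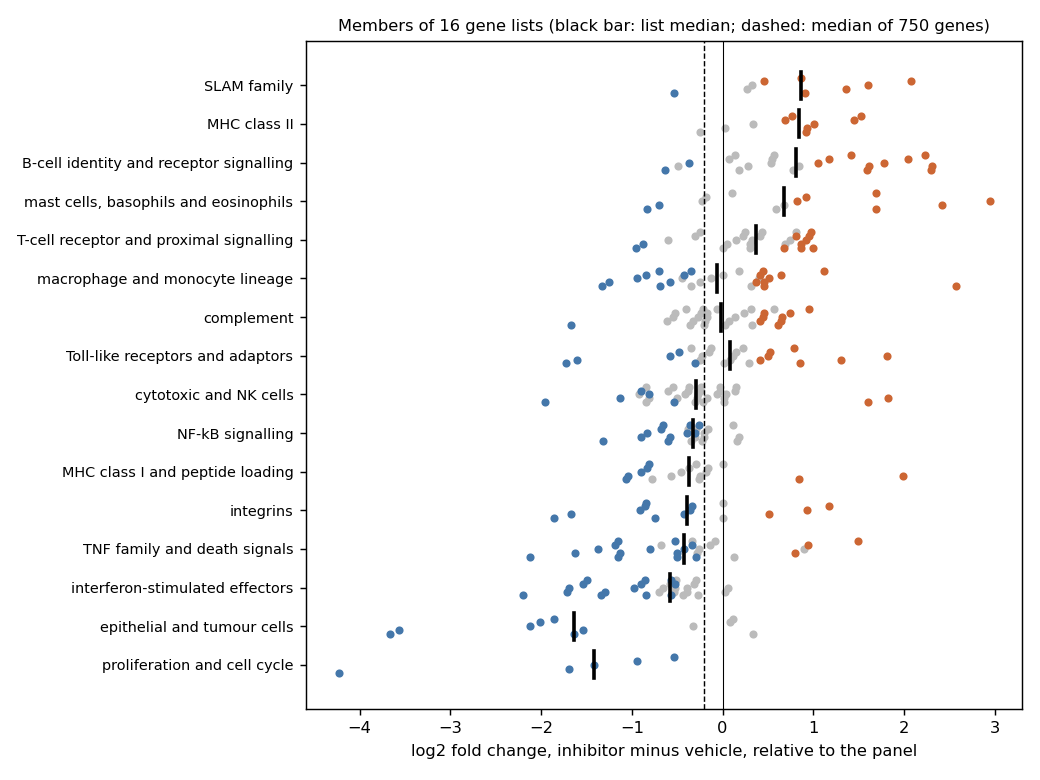
Log2 fold change relative to the panel for each member of 16 gene lists, one point per gene. Orange points were higher and blue points lower relative to the panel, grey points were not called there, the short bars are list medians and the dashed line is the median of all 750 genes (-0.20); SLAM, MHC class II and B-cell genes lie mostly to its right (medians 0.86, 0.85 and 0.81), proliferation and epithelial genes mostly to its left (-1.42 and -1.64).

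The choice of scale decided the direction for 35 genes, which were higher as deposited and lower relative to the panel. The 4 with the largest deposited change among them were Cmklr1, the chemerin receptor (0.49 deposited and -0.25 relative), Tank, an adaptor of TBK1 (0.48 deposited and -0.26 relative), Tgfbr1, a receptor chain for TGF-beta (0.46 deposited and -0.28 relative), and Lamp1, a lysosomal membrane protein (0.44 deposited and -0.30 relative). Near the threshold, Il2 and Ceacam1 were the last to pass as deposited (adjusted p = 0.0488 and 0.0488), and Il5 and Tnfsf15 the first not to (0.0503 and 0.0531). Relative to the panel, Sigirr and Tank passed last (0.0489 and 0.0493), and Abcb1a and C3 came next without passing (0.0506 and 0.0506).

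The inhibitor's changes were set beside those between untreated FAKKD and untreated FAKWT, a comparison that uses none of the same samples. Across 750 genes the deposited log2 fold changes correlated with Pearson's r = 0.704 and Spearman's rho = 0.671, given as a description, since genes are not independent and all values share one normalization. Of the 133 genes that rose with the inhibitor, 97 (72.9%) also rose in FAKKD, and these were 54.8% of the 177 genes that rose there. Of the 79 that fell with the inhibitor, 50 (63.3%) also fell in FAKKD, 70.4% of the 71 that fell there. Among all genes, 23.6% rose and 9.47% fell in FAKKD. Shared falls included Birc5, Tfrc, Myc, Epcam, Itgb4, Spp1, Dusp4, Ptgs2, Anxa1 and Pvr. Il6 was the one gene that fell with the inhibitor and rose in FAKKD, and no gene did the reverse. Against untreated FAKWT, the control of the FAKKD comparison, Il6 did not fall on both scales.

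The difference between both comparisons was tested in the same limma fit, and 141 genes (18.8%) differed on both scales, 57 with a higher and 84 with a lower change with the inhibitor. As deposited 179 genes (23.9%) passed, and relative to the panel 195 (26%). The widest differences on the low side were Chil3, Il6, Tdo2, the guanylate-binding protein Gbp2b and the interferon-induced Ifi44. Chil3 had a deposited log2 fold change of -3.46 with the inhibitor and 0.26 in FAKKD, a difference of -3.72 (adjusted p = 0.036). For Il6 these were -1.53 and 2.11 (difference -3.63, adjusted p = 0.00164), and for Tdo2 -1.94 and 1.50 (difference -3.44). Gbp2b, at 0.47 with the inhibitor and 3.91 in FAKKD, and Ifi44, at -0.55 and 1.92, are members of the list of interferon-stimulated effectors. Arg1, which fell by 2.49 with the inhibitor, had -0.04 in FAKKD (difference -2.44, adjusted p = 0.00407), and Pdcd1 had -2.51 and -0.48 (difference -2.03, adjusted p = 0.00646).

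The widest differences on the high side were Msln, Cdh1, C1s1, Vegfa and Il1rn. Msln had a deposited log2 fold change of 0.85 with the inhibitor and -1.06 in FAKKD (difference 1.92, adjusted p = 1.28e-05), and Cdh1 had 0.82 and -0.91 (difference 1.73). C1s1 and Vegfa gave 1.35 and 0.61 with the inhibitor against -0.14 and -0.61 in FAKKD. Il1rn fell in both, by 0.77 with the inhibitor and by more in FAKKD (-1.87, difference 1.10, adjusted p = 3.35e-04). Epcam had -1.27 and -1.70, a difference of 0.44 (adjusted p = 0.184).

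**Figure D5:**
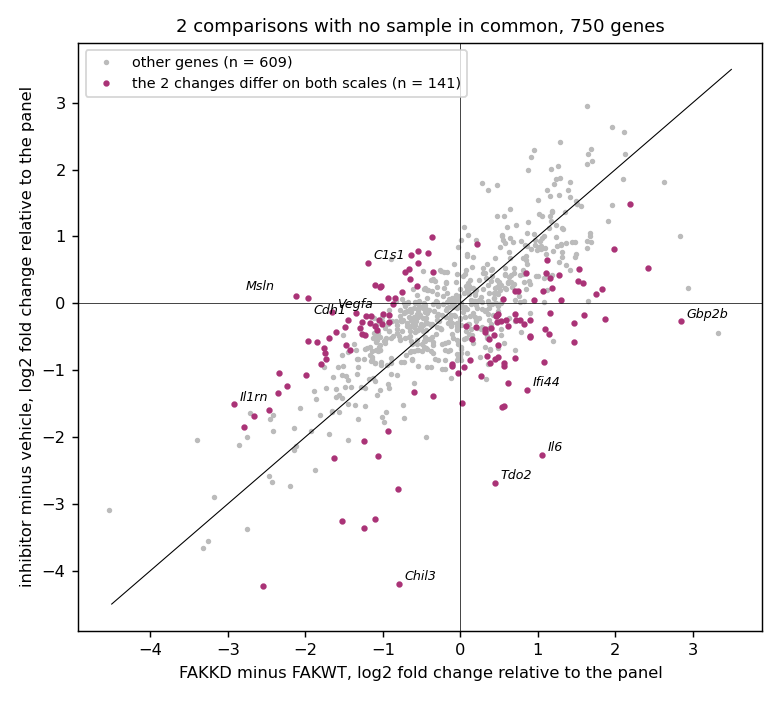
Log2 fold change relative to the panel of each of 750 genes between untreated FAKKD and untreated FAKWT (x axis) and between inhibitor and vehicle (y axis), with the line of equal change. The 141 coloured genes differ between the comparisons on both scales; Chil3, Il6 and Tdo2 lie below the line and Msln, Cdh1 and C1s1 above it.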

How the data were processed

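RNA of ascites cells was counted on a panel of 770 genes per the labels, and the deposited table gives 750 genes in 12 samples. Its values are log2 values that the authors had scaled before deposit. How they treated background and which control genes set the scale is not given in the sources used here. Undoing the log gave whole numbers after division by one factor per sample for 100% of values (tolerance 0.01), which are called recovered counts here and carry the depth. No pair of replicates in the inhibitor or vehicle group agreed within counting noise, the chi-square of their counts over genes being 8.35 to 39.4 times its degrees of freedom.

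Groups followed the titles. All 12 samples entered a single fit of 4 group means in limma 3.58.1 (R 4.3.3, lmFit and eBayes with trend), two-sided, with Benjamini-Hochberg adjustment over 750 genes and a threshold of 0.05. It was run on the deposited values and on panel-relative values, with no filter and no pseudocount, and was tested on simulated data. Errors of log2 fold changes are standard errors. Single values per sample were compared by exact permutation. Of 750 symbols, 734 matched RefSeq genes and 8 a synonym, and 8 matched neither.

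The members and lists were chosen with earlier results of these data known. Named are the 15 highest and 15 lowest deposited changes among genes that passed on both scales without overlap and had a mean recovered count of at least 20, up to 6 members of each described list with the smallest panel-relative p, the 5 genes of opposite calls with the largest deposited change, the 5 highest and 5 lowest differences from the FAKKD comparison, the genes of CD155 and TIGIT, and 2 genes on each side of a threshold. Further members are named inside the count of their list. Some genes that this rule selects are not reported here. Alternatives changed the centre of the panel, the normalization, the filter, the variance model, the control group, the threshold or the pseudocount (10), or left out each sample.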

Additional observations from a re-analysis of the deposited data

How the results depend on the processing

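Scaling set the balance of calls. As deposited 369 genes were higher and 79 lower, against 177 and 150 after quantile normalization and 157 and 177 after scaling to the total of recovered counts, and all 79 genes lower as deposited were among the lower genes of both. With the panel centred on genes with a mean count of at least 20, 142 genes in place of 216 were lower relative to the panel and 184 in place of 133 higher. Leaving out each sample in turn gave 326 to 367 genes higher and 71 to 75 lower as deposited, and 114 to 128 higher and 181 to 213 lower relative to the panel. For the difference from the FAKKD comparison the ranges were 41 to 65 higher and 96 to 147 lower as deposited, and 81 to 120 higher and 54 to 97 lower relative to the panel, with the lowest count, 54, without vehicle replicate 4. Some named genes that were higher as deposited changed sign with the scale. After quantile normalization, 6 of them turned to log2 fold changes below 0: Ceacam1 -0.16, Cmklr1 -0.071, Flt3 -0.032, H2-D1 -0.19, Lamp1 -0.12 and Tgfbr1 -0.057. With scaling to the total of recovered counts, 10 of them turned to log2 fold changes below 0: Cd68 -0.22, Ceacam1 -0.29, Cmklr1 -0.13, Emr1 -0.22, Flt3 -0.051, H2-D1 -0.13, Lamp1 -0.17, Tank -0.14, Tgfbr1 -0.15 and Vegfa -0.0061. Ceacam1 gave -0.24 against untreated FAKWT. The cause was not tested in any of these. Over the 239 genes named, 3935 of 4266 deposited values and 3929 of 4266 panel-relative values under an alternative kept their direction and their side of the threshold, 120 and 201 were lost, 96 and 66 gained, and beside the genes above the rest changed sign without a call as reported. No paired analysis was possible because the inhibitor and vehicle groups share replicate number 4 alone. The depth, 588778 to 760152 recovered counts, leaves genes under 20 counts poorly measured.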

Other observations

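Further gene groups of the panel are given here, and single genes are named inside their counts. Their shares are to be read against the 17.7% of all genes that rose and the 10.5% that fell. Of the costimulatory genes 18.8% rose and 6.25% fell, and of the helper and regulatory T-cell regulators 14.3% rose. For the Fc receptors and innate lectins the shares were 28.6% and 7.14%. Of 16 costimulatory genes, 3 rose and 1 fell: Icosl, the ligand of ICOS, had log2 fold changes of 1.33 deposited and 0.59 relative, beside Cd40 and Cd86, and Tnfsf14, the cytokine LIGHT, had -1.54 deposited and -2.28 relative. Of 21 regulators of helper and regulatory T cells, 3 rose and none fell: Rora (1.69 deposited and 0.95 relative) and Ikzf2 (1.22 deposited and 0.48 relative), both transcription factors, and the chemokine receptor Ccr4 (1.18 deposited and 0.44 relative). Of 14 Fc receptors and innate lectins, 4 rose, among them Clec7a, which binds fungal glucan (1.44 deposited and 0.70 relative), and 1 fell, Fcgr4, an activating IgG receptor of the mouse (-0.82 deposited and -1.56 relative). The 4 became 2 or 3 without any 1 sample, and none fell against untreated FAKWT.

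Chosen after their values were seen, Mif, a cytokine that many tumour cells release (-1.13 deposited and -1.87 relative), Hsd11b1, which regenerates glucocorticoid (-1.32 deposited and -2.07 relative), Mme, a surface peptidase (-1.17 deposited and -1.91 relative), and Smpd3, a sphingomyelinase (-0.86 deposited and -1.60 relative), fell. Gpr183, an oxysterol receptor that guides B cells, rose (2.29 deposited and 1.55 relative).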
